A study of Homo sapiens with 17 samples.

Results

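In YB5 cells, 210 protein-coding genes that were silent on the vehicle DMSO gave clear counts in every toyocamycin library of the last time point. YB5 is a colon cancer line made from SW48 cells, in which a single copy of a GFP gene behind a hypermethylated CMV promoter is kept silent. A gene was taken as silent when it had at most 2 counts in each of the 8 DMSO libraries, and 4917 of 19141 genes counted met that limit. Members were selected on these same counts, as the silent genes with at least 30 counts in each of the 3 toyocamycin libraries of 72 h. They make up 4.27% of the silent genes, and the other 4707 silent genes serve as the comparison below. The difference between toyocamycin at 72 h and DMSO chose the members and is therefore given as a description, without a test.

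All libraries are polyA-selected RNA from YB5 cells given either DMSO or 250 nM toyocamycin, an adenosine analog made by Streptomyces. On DMSO, 2 libraries are labelled 2 h, 1 library each 10, 24 and 48 h, and 3 libraries 72 h. On toyocamycin, 2 libraries each are labelled 2 and 10 h, 1 library each 24 and 48 h, and 3 libraries 72 h. The study's text gives a later hour than the labels for the last time point, and the labels' hour is used here. Per the labels, replicate 2 of either treatment at 2 and at 10 h forms batch 2, and the other libraries form batch 1. The reporter line is 1 clone, and nothing in the labels says whether replicates came from separate cultures, so p-values measure the spread between these libraries, which may be technical. Of 12 colon epithelium markers, 9 were above 3 counts in at least 1 DMSO library, whereas CDX1, FABP1 and KRT20 were not. The summed level of the 12 was 1761 to 6938 CPM on DMSO and 532 to 564 CPM at 72 h on toyocamycin. CPM are counts in a library of 1000000, here scaled by TMM, which sets a factor for each library. At 72 h on toyocamycin CEACAM5 too was at 3 counts or fewer, and the part of these markers in the results below was not tested.

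Genes that a cell lineage does not use are commonly held silent by methylated CpG-rich promoters, by the Polycomb mark on histone H3 lysine 27, or by the absence of the factors that would start transcription. A gene is read in 1 direction from its promoter to its polyA site, so a neighbour on the same strand can lie upstream, before the promoter, or downstream, after the polyA site. The YB5 line was built to ask which agents switch silenced genes back on.

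The promoters of 4 members, chosen because these genes rank among the highest or earliest and their promoters span CpG-rich to CpG-poor, are printed here from RefSeq on build GRCh38.p14. Each runs from 250 bases before to 50 bases after the annotated start of transcription, 5′ to 3′ on the gene's strand, with every CpG in capitals. ZDBF2 lies at chr2:206274413-206274712 on the plus strand with 18 CpGs, GPR63 at chr6:96837428-96837727 on the minus strand with 27, TBR1 at chr2:161416047-161416346 on the plus strand with 4, and TAS2R5 at chr7:141789967-141790266 on the plus strand with 5.
ZDBF2: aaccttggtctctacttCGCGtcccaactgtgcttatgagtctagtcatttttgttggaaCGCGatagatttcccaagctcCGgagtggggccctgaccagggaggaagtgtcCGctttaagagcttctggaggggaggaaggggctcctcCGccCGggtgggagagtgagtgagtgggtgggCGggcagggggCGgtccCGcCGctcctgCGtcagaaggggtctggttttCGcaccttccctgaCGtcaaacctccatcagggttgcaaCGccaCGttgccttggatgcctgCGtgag
GPR63: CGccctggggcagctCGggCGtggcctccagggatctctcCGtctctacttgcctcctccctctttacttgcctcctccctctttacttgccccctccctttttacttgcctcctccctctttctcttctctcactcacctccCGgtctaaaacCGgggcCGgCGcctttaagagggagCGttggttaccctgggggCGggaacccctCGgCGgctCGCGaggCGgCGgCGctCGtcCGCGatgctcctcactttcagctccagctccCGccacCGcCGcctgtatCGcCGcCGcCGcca
TBR1: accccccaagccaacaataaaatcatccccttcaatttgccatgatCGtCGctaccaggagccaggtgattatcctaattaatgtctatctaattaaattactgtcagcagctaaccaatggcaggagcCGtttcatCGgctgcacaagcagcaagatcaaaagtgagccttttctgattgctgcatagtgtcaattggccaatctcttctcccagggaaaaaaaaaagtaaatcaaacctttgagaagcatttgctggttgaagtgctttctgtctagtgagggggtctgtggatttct
TAS2R5: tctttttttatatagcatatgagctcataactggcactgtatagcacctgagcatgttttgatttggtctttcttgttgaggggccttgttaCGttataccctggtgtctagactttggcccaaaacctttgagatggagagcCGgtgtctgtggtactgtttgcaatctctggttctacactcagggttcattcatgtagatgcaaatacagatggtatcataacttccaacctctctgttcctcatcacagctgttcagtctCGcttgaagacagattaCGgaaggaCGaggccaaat
RefSeq promoter sequences were matched to 145 of the 210 members, so the promoters of the whole set were read from the GRCh38 genome instead, at the start of each gene's canonical transcript, which gave a 300-base window for all 210. The observed to expected ratio of CpG in that window had a median of 0.549 among members, 0.366 among the other silent genes and 0.837 among genes that were not silent. A ratio of 0.6 or more was found for 98 members (46.7%), against 35.1% of the other silent genes and 80.7% of genes not silent. The TATA box TATAAA, searched on both strands, was in 13.8% of member promoters, in 18.4% of those of the other silent genes and in 9.30% of all 18999 promoters read. The GC box GGGCGG was in 46.2% of member promoters, in 36.2% of those of the other silent genes and in 62.7% of all. The CCAAT box was in 33.8%, 37.1% and 35.9%. The members' promoters therefore lay between those of the other silent genes and those of expressed genes in CpG content.

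One library has to be set apart before the time course. Replicate 2 of toyocamycin at 10 h has the lowest total, 8735465 counts, where the other libraries have 13483232 to 22121364. In it, 72.4% of the other silent genes had 4 or more counts, against 3.10% in replicate 1 of the same group and at most 26.3% in any further library. Across the 4917 silent genes, counts in this library followed the length of the exons with a Spearman correlation of 0.685, a description across genes of 1 library, and the same correlation was 0.052 to 0.218 elsewhere. Among members, 82 had 10 or more counts in replicate 2 and 3 or fewer in replicate 1, and 1 member showed the opposite. The numbers of members on or called higher at 10 h are therefore given with and without this library. Fold changes of single genes at 10 h come from the fit with both libraries.

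The members rose in steps over the time on toyocamycin. Their sums are given here as a share of all counts in a library, without TMM, unlike the CPM of single genes. Together they held 1.87 to 3.71 CPM in the DMSO libraries and 8.94 and 12.2 in the toyocamycin libraries of 2 h. At 10 h they held 62.1 in replicate 1 and 378 in replicate 2. At 24 h the share was 152 CPM, after 48 h 644, and in the libraries of 72 h it was 1412, 1420 and 1447. A gene was called on at a time when it had at least 10 counts in every toyocamycin library of that time. By this measure 0 members were on at 2 h, 14 (6.67%) at 10 h, 63 (30%) after 24 h and 181 (86.2%) after 48 h. Among the other silent genes the shares at these 4 times were 0%, 0.297%, 1.34% and 6.37%. These genes are the ones that missed 30 counts in a library of 72 h, so the gap follows in part from the rule. With replicate 1 alone 23 members were on at 10 h, and with replicate 2 alone 121. Sorted by the earliest time on, 14 members came first at 10 h, 49 after 24 h, 118 after 48 h and 29 by the last time.

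**Figure D1:**
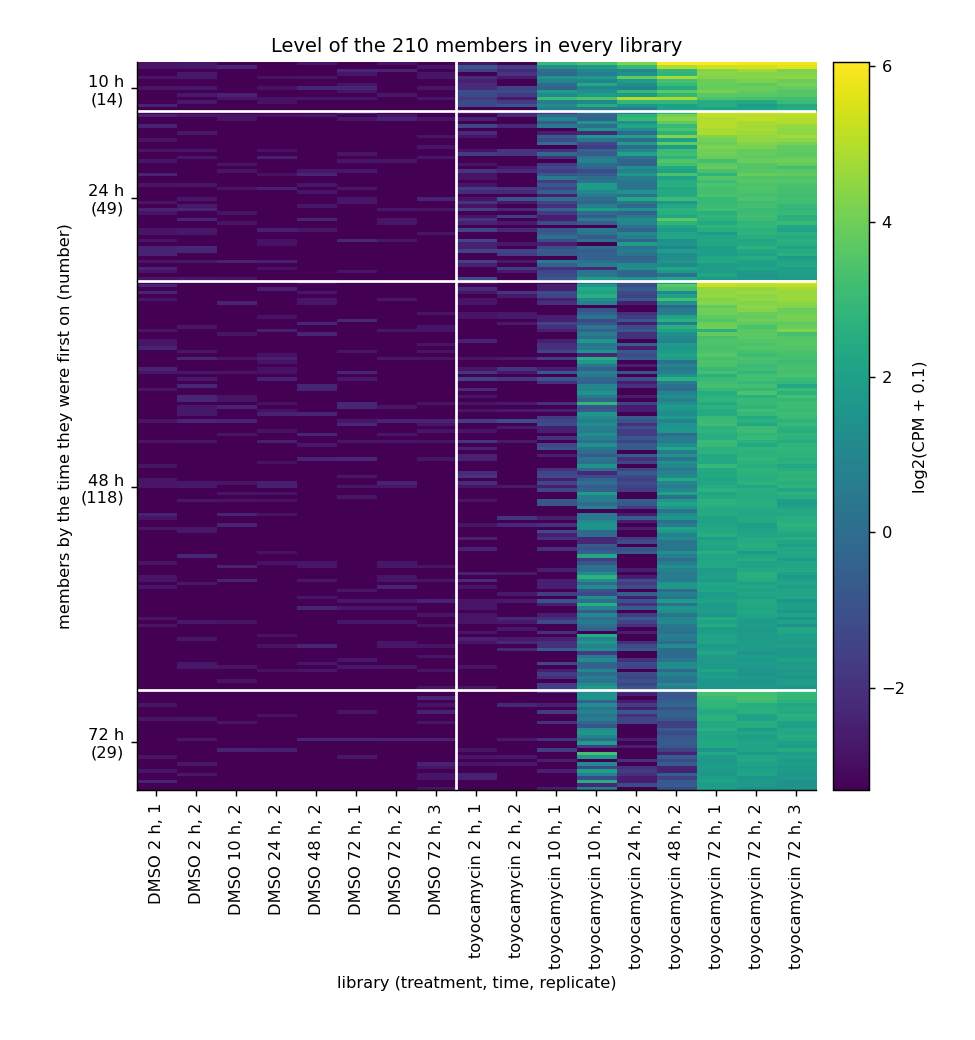
Level of each of the 210 members (rows, grouped by the time at which they were first on) in each of the 17 libraries (columns), as log2 of CPM (scaled by TMM) plus 0.1. The 8 DMSO columns are dark throughout, the 3 columns of 72 h are bright throughout, and replicate 2 of 10 h has counts in rows that stay dark in replicate 1 and at 24 h.

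The time points between 2 and 48 h did not enter the selection, so toyocamycin at 10, 24 and 48 h was compared with toyocamycin at 2 h in a fit of 16521 genes (edgeR's quasi-likelihood test, Benjamini-Hochberg adjusted p under 0.1). All 210 members were among the genes fitted, but a silent gene could enter only through its counts at the later times, so a member in the fit was already a gene with counts late, and the counts of calls are given as a description. At 10 h, 171 members were higher than at 2 h, where 28.9% of all genes tested were higher. Of the other silent genes in that fit, 52.4% were higher too. Without replicate 2 of 10 h, 66 members were higher, where 21.5% of all genes tested were, and 83 of 901 other silent genes. The count was 53 in a fit of only the libraries compared and 108 without replicate 1 of 2 h. At 24 h, 99 members were higher than at 2 h, where 24.2% of all genes were higher, and 3.24% of the other silent genes in the fit. The count was 46 in a fit of only the libraries compared and 61 when scaled on the mitochondrially encoded genes. At 48 h, 201 members were higher, where 31.2% of all genes were higher, and 18.5% of the other silent genes, and 90 members were higher in a fit of only the libraries compared. The 24 and 48 h groups hold 1 library each and borrow the spread of the other groups, so only counts of calls are given there. Apart from the fit without replicate 2 of 10 h, the alternative fits are given without the share of all genes called. Whether their counts moved more for members than for other genes therefore cannot be read from them.

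**Figure D2:**
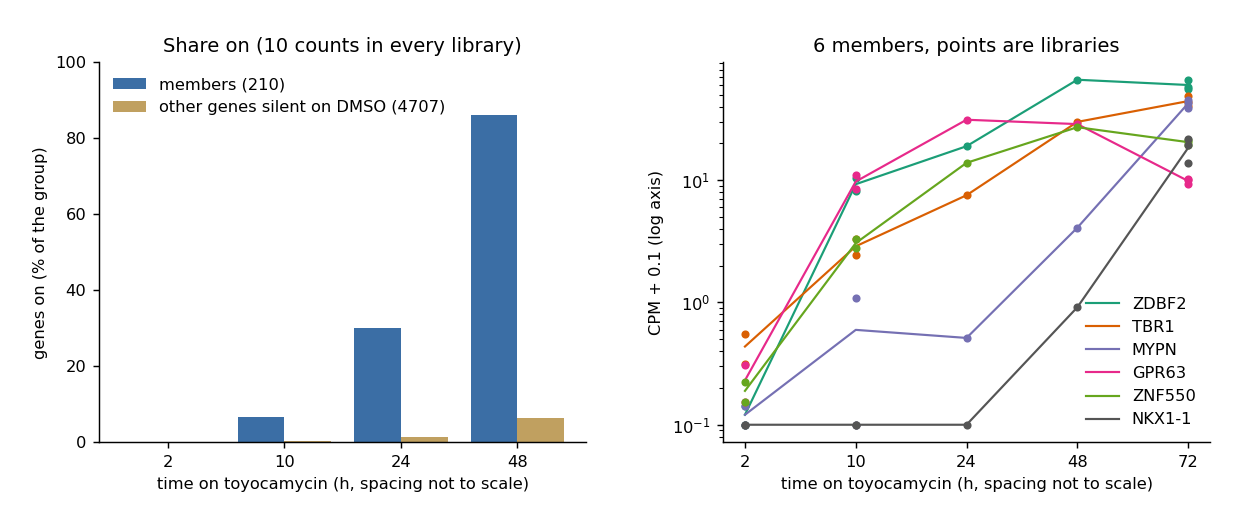
Left, share of the 210 members and of the 4707 other silent genes with at least 10 counts in every toyocamycin library of 2, 10, 24 and 48 h. The gap between the 2 groups follows in part from the rule, which chose members by their counts at 72 h. Right, CPM plus 0.1 on a log axis for 6 members on toyocamycin, with a point for each library and a line through the means. The members' share climbs from 0% to 86.2%, and GPR63 and ZNF550 peak before 72 h while MYPN and NKX1-1 come up late.

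ZDBF2, an imprinted zinc finger gene on chromosome 2 (206274663 to 206314427, plus strand), had the highest count of all members. Its DMSO libraries held 0 or 1 count each. On toyocamycin it had 1 and 0 counts at 2 h, 113 and 93 at 10 h, 274 after 24 h, 813 after 48 h, and 674, 624 and 640 at 72 h. Both 10 h libraries thus stood far above both 2 h libraries, including the shallow one. The log2 fold change at 10 h against 2 h was 8.23 ± 0.49 (SE, edgeR). ZDBF2 is named for its counts at 10 h as well as at 72 h, so no test is given. The mean level at 72 h was 59.9 ± 5.61 CPM (SD, n = 3), below its 48 h value.

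TBR1, a T-box transcription factor of cortical neurons, rose from 10 h on and was highest at 72 h. On toyocamycin it had 11 and 4 counts at 2 h, 33 and 29 at 10 h, 108 after 24 h, 367 after 48 h, and 409, 471 and 561 at 72 h, against at most 2 in a DMSO library. The 11 counts at 2 h were the highest of any member at that time, and 181 members had fewer than 4 counts in both libraries of 2 h. TBR1 too is named for its counts at 10 h and at 72 h. Its log2 fold change at 10 h against 2 h of 2.94 ± 0.39 (SE, edgeR) is therefore given without a test.

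GPR63, a G protein-coupled receptor, went up and came down again. It had 5 and 1 counts at 2 h, 117 and 99 at 10 h, 452 after 24 h, 352 after 48 h, and 103, 107 and 106 at 72 h. The libraries of 24 and 48 h each exceeded all 3 libraries of 72 h. GPR63 is named for its counts at 10 h, so its log2 fold change at 10 h against 2 h of 6.03 ± 0.43 (SE, edgeR) is given without a test. ZNF550, a C2H2 zinc finger gene, had 3 and 1 counts at 2 h, 38 and 29 at 10 h, 200 after 24 h, 332 after 48 h, and 198, 221 and 243 at 72 h.

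Such early peaks were the exception. The mean CPM was highest at 72 h for 201 members, after 48 h for 6, after 24 h for 2 and at 10 h for 1. The member with its highest value at 10 h was ABCA13, an ABC transporter gene, with 88 counts in replicate 2 of 10 h and 0 in replicate 1. In 191 members the lowest 72 h library was above the 48 h library in CPM, and in 5 the highest 72 h library was below it. The median member stood at 4.56% of its 72 h level at 24 h and at 34.3% at 48 h. The 3 libraries of 72 h were close to each other, with a median coefficient of variation of 14.9% across members, and 10 members exceeded 30%.

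The other members on at 10 h in both libraries were CLDN19, JAML, MOBP, ARMCX4, SLC23A1, CD200R1, RFTN2, RBPJL, ART3 and GDF6. They include a tight junction claudin (CLDN19), a myelin protein (MOBP), a vitamin C transporter (SLC23A1), an inhibitory immune receptor (CD200R1) and a bone morphogenetic ligand (GDF6). The counts at 10 h placed these genes and the 4 above in the group of 14, so no test is given for them as a group. Their log2 fold changes at 10 h against 2 h, fitted with both 10 h libraries, ran from 2.60 for RBPJL to 8.23 for ZDBF2. GDF6 had 0 counts in both 2 h libraries, 22 and 13 at 10 h, 22 after 24 h and 50 after 48 h, so its fitted fold change depends on the prior count.

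At the other end, MYPN, which codes for a sarcomere protein, and NKX1-1, a homeobox gene, appeared late. MYPN had 1 and 0 counts at 2 h, 0 and 9 at 10 h, 6 after 24 h, 49 after 48 h, and 431, 422 and 524 at 72 h. NKX1-1 had 0 counts in all libraries up to 24 h, 10 at 48 h, and 140, 233 and 224 at 72 h. The step from 48 to 72 h was therefore the main rise of both genes.

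The 10 members with the highest mean CPM at 72 h were ZDBF2, TBR1, MYPN, GJA4, PTGER3, TAS2R5, FCAMR, RSPO2, POU1F1 and RIC3, with 26.3 to 59.9 CPM. Per kilobase of exon the order differed. At 72 h TAS2R5, a bitter taste receptor, had 29.9 RPKM, C17orf98 23.4, the endothelial gap junction gene GJA4 22.9 and the skin envelope gene LCE1B 22.6, whereas ZDBF2 had 5.49. The median member had 6.01 CPM, with an interquartile range of 4.46 to 10.3, so most members stayed low even at 72 h.

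On DMSO, 67 members had 0 counts in all 8 libraries and 131 had 0 counts in the 3 libraries of 72 h. Against a floor of 3 counts over those 3 libraries, the 131 members were at least 68.1-fold higher on toyocamycin at 72 h, with a median bound of 120-fold and a highest of 919-fold. These bounds cover counting error only. Members are longer than the other silent genes, with a median exon length of 3959 bases against 3029. In bulk RNA, a gene switched on in a few cells and a low level in all cells cannot be told apart.

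At the limit of the rule lie LILRB5, with 30, 34 and 32 counts at 72 h, NALCN with 40, 30 and 31, and CASR with 30, 31 and 41. Just outside are BDNF with 46, 48 and 29 counts, IFNA2 with 48, 29 and 44, and MXRA5 with 42, 29 and 46. A further 58 genes had 3 as their highest DMSO count and reached 30 at 72 h, among them SYNE1 with 1161, 1085 and 1219 counts.

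The members are spread over many gene families rather than drawn from a few. Of 39 families defined by gene symbol, 30 held a member, 92 members belonged to at least 1 family and 118 to none. The largest group was G protein-coupled receptors outside the olfactory family, with 12 of 209 silent genes (5.74%), read against 4.27% of all silent genes. It holds the prostaglandin receptor PTGER3, TAS2R5, the motilin receptor MLNR and MRGPRE, and by its symbol also GPR15LG, which codes for a ligand and not a receptor. PTGER3 had 400, 378 and 407 counts at 72 h, 152 after 48 h, 5 after 24 h and 0 in both libraries of 2 h.

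Transcription factors of developmental families gave 10 of 160 silent genes (6.25%). They are POU1F1, which specifies pituitary cells, NKX1-1, FOXD4L4, TCF24, SOX10 of the neural crest, SOX18 of the endothelium, PAX5 of B cells, POU4F1 and BARHL2 of sensory and retinal neurons, and LBX1 of muscle precursors. No single lineage is common to these factors. POU1F1 had 328, 294 and 279 counts at 72 h, 98 after 48 h and 66 after 24 h, and LBX1 had 53, 51 and 60 at 72 h, 14 after 48 h and 0 before. By 24 h, 6 of the 10 were on, where 30% of all members were. HOX genes gave 0 of 5 silent genes.

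Potassium channel genes gave 7 of 47 silent genes (14.9%). They are the inward rectifiers KCNJ15, KCNJ12 and KCNJ2, the voltage-gated KCNQ5 and KCNS1, and KCNH1 and KCNH5 of the ether-a-go-go family. At 72 h KCNJ15 had 109, 117 and 89 counts, and at 48 h it had 7. By 24 h 0 of the 7 were on, 3 were first on at 48 h and 4 at 72 h. Of all 210 members, 30% were on by 24 h and 29 were first on at 72 h.

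Smaller groups were solute carriers with 6 of 110 silent genes, zinc finger genes with 4 of 158 (ZNF550, ZNF502, ZNF284 and ZNF560), and ABC transporters with 3 of 12 (ABCC9, ABCG8 and ABCA13). Of 31 silent ubiquitin-specific and RING finger genes 4 were members, of which USP17L1, USP17L2 and USP17L4 are near-identical copies on chromosome 8 whose reads the counting may split, so their single values are uncertain. Families with many silent genes and few members were olfactory receptors, with 2 of 325 (OR2C1 and OR5AU1), and the MAGE, GAGE, SSX and PRAME genes of the testis, with 0 of 78.

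By normal tissue, the members again come from many places. Of 15 lists of tissue-specific genes 12 held a member, and 29 members were on a list. Blood and immune cells gave 6 of 124 silent genes: the complement receptors CR2 and CR1, the cytotoxic granule protein GNLY, the killer cell receptor NCR3, PAX5 and the integrin ITGAM. CR2 had 111, 121 and 137 counts at 72 h, 22 after 48 h and 0 after 24 h. By 24 h 0 of the 6 were on, where 30% of all members were. The 6 haematopoietic markers of the cell check, which include PTPRC and SPI1, summed to 0.232 to 1.69 CPM on DMSO and to 18.8 to 19.99 CPM at 72 h on toyocamycin, with HBB at 3 counts or fewer, and their part in this group was not tested.

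Neurons and synapses gave 4 of 92 silent genes (DLGAP1, SV2A, SCN2A and SLC32A1). DLGAP1, a scaffold of the postsynaptic density, had 241, 232 and 286 counts at 72 h, 48 after 48 h and 4 after 24 h. SLC32A1, the vesicular GABA transporter, had 46, 40 and 63 counts at 72 h and 6 at 48 h. Of the 4 neuronal markers of the cell check, SNAP25 and GAP43 were at 3 counts or fewer both on DMSO and at 72 h on toyocamycin. The other 2 were above 3 counts in at least 1 library of both. All 4 were above 3 counts in at least 1 library of 10 to 48 h, but so was every marker of every other cell type checked. Those libraries include replicate 2 of 10 h, which was set apart above. The 4 summed to 5.49 to 15.6 CPM on DMSO and to 10.9 to 15.3 CPM at 72 h. Glia gave 2 of 14 silent genes, MOBP and SOX10, both on by 24 h, where 30% of all members were.

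Testis and germ cells gave 4 of 99 silent genes (LDHC, SPAG6, ODF4 and TEX43), and cancer-testis antigens gave TRIML2 out of 55. LDHC, the lactate dehydrogenase of sperm, had 3 and 2 counts at 2 h, 9 and 18 at 10 h, 37 after 24 h, 61 after 48 h, and 99, 109 and 110 at 72 h. The germ cell markers DDX4, DAZL, SYCP3 and PRM1 were all at 3 counts or fewer at 72 h. Skin gave 3 of 52 (LCE1B, LCE1C and KRT28), all on by 24 h, where 30% of all members were. The neuropeptide list gave OXT and AVP out of 58. Muscle gave TRIM55 out of 56, beside 4 muscle markers that summed to 0 to 0.464 CPM on DMSO and to 6.39 to 8.89 CPM at 72 h, with MYH1 and DES at 3 counts or fewer, and whose part was not tested. The lists further gave, for the eye and ear CRYAB out of 50, motile cilia CFAP141 and DNAI2 out of 26, fibroblasts COL20A1 out of 28, and endothelium SOX18 and ANGPT2 out of 23. Liver gave 0 of 62 silent genes, kidney 0 of 16 and the colon epithelium 0 of 3. Across the lists the shares ran on both sides of the 4.27% of all silent genes.

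Position was a feature that the rule did not use, and the shares below are descriptions without a test. An expressed gene is taken here as one with at least 1 CPM on DMSO at 72 h, and only counted genes that do not overlap the silent gene are considered. Such a gene lay within 50 kb upstream on the same strand of 86 of the 210 members (41.0%), against 15.3% of the other silent genes. Within 10 kb the shares were 14.3% and 4.46%. The other 3 arrangements differed less. Within 50 kb, a downstream gene on the same strand was found for 23.8% of members and 17.04% of other silent genes, an upstream gene on the other strand for 22.9% and 12.1%, and a downstream gene on the other strand for 25.7% and 17.1%.

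The shares also differed with the time of appearance. The upstream arrangement on the same strand was found for 35 of the 63 members first on at 10 or 24 h (55.6%), for 47 of the 118 first on at 48 h (39.8%) and for 4 of the 29 first on at 72 h (13.8%). The last group was close to the 15.3% of the other silent genes. Both arrangements on the other strand were likewise less frequent in the last group. In the same order of groups, an upstream gene on the other strand was found for 27.0%, 24.6% and 6.90%, and a downstream one for 28.6%, 28.8% and 6.90%. A downstream gene on the same strand was found for 22.2%, 24.6% and 24.1%. Read the other way, 40.7% of the 86 members with an expressed gene upstream were on by 24 h, against 22.6% of the 124 without. Being on rests on a fixed count, and the 86 members were also higher at 72 h, with a median of 7.12 CPM against 5.57. As a share of the 72 h level, the median at 24 h was 5.56% with such a gene and 4.01% without. None of the 7 potassium channel genes had such a gene upstream.

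**Figure D3:**
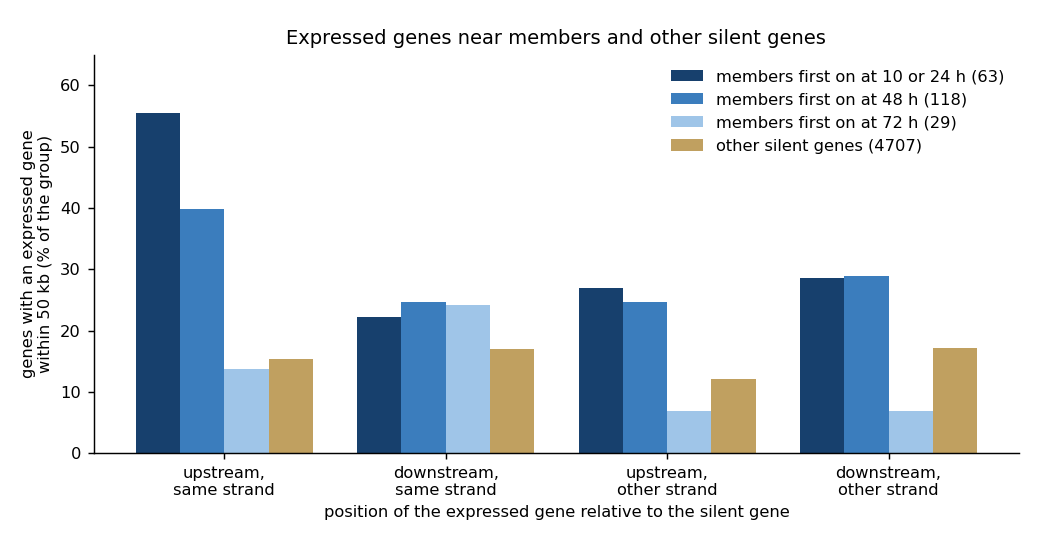
Share of genes with an expressed gene within 50 kb, by the side and strand on which that gene lies, for members first on at 10 or 24 h (63), at 48 h (118) and at 72 h (29) and for the 4707 other silent genes. The bars for the upstream, same-strand position fall from 55.6% to 39.8% and 13.8% with later appearance, both other-strand positions drop to 6.90% in the members first on at 72 h, and the downstream, same-strand bars of the members lie between 22.2% and 24.6%.

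The same count was made in the silent genes outside the rule. Of the 300 that were on at 48 h, 40.7% had an expressed gene within 50 kb upstream on the same strand, against 13.6% of the 4407 that were not on. For these 300 genes a downstream gene on the other strand was as frequent, at 41.0% against 15.5%. Other silent genes were also split by their counts in single toyocamycin libraries. At 24 h the upstream arrangement was found in 46.0% of 63 genes with at least 10 counts and in 14.9% of those below. At 72 h the shares were 30.3% to 33.7% and 12.8% to 13.6%. A downstream gene on the same strand was found at 72 h for 24.3% to 26.1% and 15.9% to 16.1%. In replicate 2 of 10 h the upstream arrangement was found in 14.2% of 1945 genes with at least 10 counts and 16.0% of those below. In that library the shares of genes with and without counts were thus close to each other, unlike those of 24 to 72 h. The counting setting for strand is not given in the sources used here, and 33 members overlap a gene on the other strand, of which reads may have been counted on the member.

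The expressed genes upstream of members were then followed themselves, as their own counts did not enter the rule. The 86 members have 82 different expressed genes upstream that are not members. At 72 h, 48 of the 82 (58.5%) were higher on toyocamycin than on DMSO and 20 (24.4%) lower in edgeR, where 42.4% of all genes tested were higher and 36.1% lower. Of the 11016 expressed genes, 32.7% were higher and 53.6% lower. Of 638 expressed genes upstream of other silent genes and of no member, 25.5% were higher and 59.1% lower. The median log2 fold change was 0.75 upstream of members, -1.03 upstream of other silent genes only and -0.61 over all expressed genes. Scaling on the mitochondrially encoded genes turned the split of the 82 genes to 25 higher and 30 lower. That scaling also lowered the median log2 fold change of all genes, as given further below. The splits of the 638 genes and of all expressed genes under it are not given here. Whether the difference between the groups holds under it therefore cannot be read from this split.

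**Figure D4:**
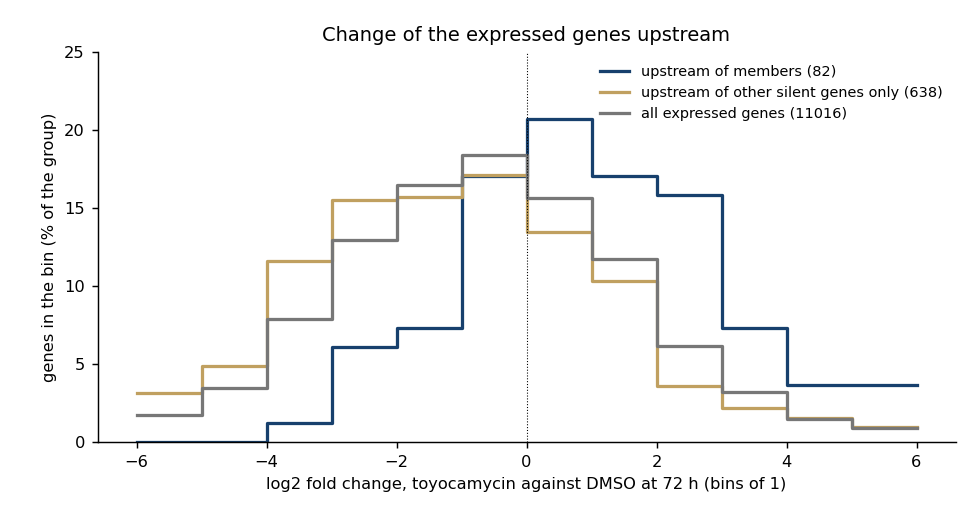
Share of genes in each bin of log2 fold change (toyocamycin against DMSO at 72 h, values past the axis placed in the end bins) for the 82 expressed genes upstream of members, the 638 upstream of other silent genes only, and all 11016 expressed genes. The curve of the genes upstream of members lies to the right of the others, with a median of 0.75 against -1.03 and -0.61.

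The nearest pairs are the 14 members with an expressed gene within 5 kb upstream, a limit set after the values were seen. At 72 h 9 of these upstream genes were higher on toyocamycin than on DMSO, 2 were lower and 3 did not pass the test. CFAP141, a gene of motile cilia, starts 363 bases past the end of C1orf43, which rose from a mean of 141 to 575 CPM between DMSO and toyocamycin at 72 h (log2 fold change 2.02 ± 0.15 SE, edgeR, adjusted p = 3.12e-09). CFAP141 itself had 4 and 2 counts at 2 h, 3 in each library of 10 h, 23 after 24 h, 52 after 48 h, and 102, 131 and 143 at 72 h. JAML, an adhesion molecule of leukocytes, lies 1598 bases past MPZL3, whose log2 fold change was 3.67 ± 0.22 (SE, edgeR, adjusted p = 2.84e-10). TAS2R5, whose CpG-poor promoter is printed above, lies 2295 bases past SSBP1 (0.73 ± 0.20, adjusted p = 0.00361). It had 0 and 2 counts at 2 h, 12 and 7 at 10 h, 91 after 24 h, 202 after 48 h, and 365, 363 and 387 at 72 h. TBR1, with the other CpG-poor promoter shown, lies 4580 bases past the proteasome gene PSMD14, which went from 84.6 to 303 CPM (1.84 ± 0.19, adjusted p = 2.54e-07). TEX43 lies 4453 bases past PHAX (3.04 ± 0.19, adjusted p = 6.68e-10). The upstream genes RRS1 of ADHFE1, ZNG1E of FOXD4L4, ARFGAP1 of COL20A1 and HNRNPH2 of ARMCX4 were higher too, with log2 fold changes of 2.08, 1.76, 0.47 and 2.20.

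The remaining 5 of the 14 fell or did not pass the test. LDHC lies 3893 bases past LDHA, the lactate dehydrogenase of most tissues, which fell by 2.40 on the log2 scale (SE 0.18, edgeR, adjusted p = 4.78e-09) from 1691 to 320 CPM. FAM180B lies 2116 bases past NDUFS3, whose log2 fold change was 0.09 ± 0.16 (adjusted p = 0.62). C11orf91 lies 2184 bases past CD59 (0.30 ± 0.18, adjusted p = 0.143). BEST2 lies 3379 bases past GET3 (-0.62 ± 0.15, adjusted p = 0.0013), and MYT1 1751 bases past OPRL1 (-0.38 ± 0.46, adjusted p = 0.459). ZDBF2, GPR63 and MYPN have no expressed gene within 50 kb upstream on their strand. The nearest such gene of GPR63, NDUFAF4, lies just past that limit, at 51838 bases. Those of ZDBF2 and MYPN lie at 111735 and 169507 bases.

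The tested genes nearest to each member on either side were also compared, as 384 different genes that are not members. Of these, 242 (63.0%) were higher on toyocamycin than on DMSO at 72 h and 79 (20.6%) lower in edgeR, against the same 42.4% and 36.1% of all genes tested. Their median log2 fold change was 1.78, where that of all genes tested was 0.47. These neighbours include other silent genes, of which 56.9% of those tested were higher at 72 h, so the share is not a measure of expressed genes alone.

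Members also lay close to each other in places. In 18 groups, holding 37 members, members stood within 100 kb of the next. No such count is given for the other silent genes, so whether members lie closer together than those cannot be read from it. The skin genes LCE1C and LCE1B are 8277 bases from end to end on chromosome 1, and LCE1C had 70, 79 and 54 counts at 72 h against 303, 277 and 249 for LCE1B. The complement receptors CR2 and CR1, the neuropeptides OXT and AVP, the sodium channel subunit SCN2B with JAML, and ARMCX4 with ARMCX1 form further pairs. The cytokines LTA and TNF and the receptor NCR3 lie within 20953 bases of the major histocompatibility region on chromosome 6, with LTB and LST1 between them. LTA had 133, 153 and 198 counts at 72 h, TNF 38, 34 and 52, and NCR3 64, 75 and 99. OXT had 51, 64 and 74 counts and AVP 35, 36 and 55. In LCE1 and CR1 neighbouring genes are close copies, so reads between them may have been split.

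Pairs of neighbours did not always appear together. ARMCX4 was on at 10 h, with 12 and 46 counts, and ARMCX1 at 48 h, with 38. JAML was on at 10 h and SCN2B at 72 h. LDHC had 37 counts and LDHAL6A 10 at 24 h, and both were on by then.

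By chromosome, members made up 9.72% of the silent genes on chromosome 20 (14 of 144), 7.88% on chromosome 10, 7.46% on chromosome 18 and 7.14% on chromosome 8, and 0 of 11 on the Y chromosome. Chromosomes 9 (3 of 154) and 12 (5 of 244) had the lowest shares among the others, at 1.95% and 2.05%. Overlap with another counted gene was about as frequent among members (20.5%) as among the other silent genes (19.8%). A start on the other strand within 5 kb, of a gene with at least 1 CPM on DMSO, was found for 6 members (2.86%) and for 1.66% of the other silent genes. Of members with a promoter CpG ratio of 0.6 or more 28.6% were on by 24 h, and of those below 31.3%, a smaller gap than that between members with and without an expressed gene upstream.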

How the data were processed

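RNA-seq libraries of YB5 cells were grouped by treatment and time from the deposited labels. Raw counts for 19141 genes were deposited by the authors, who had used STAR 2.7.5a and build GRCh38, of which 19080 were matched to the GENCODE annotation of the same build for positions. The strand setting is not given in the sources used here. The deposited table of the authors' own edgeR comparisons was not used, and 1 column of the count table, which matches no deposited sample, was left out. Libraries held 8735465 to 22121364 counts.

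Genes were filtered with filterByExpr, scaled with TMM and tested with the quasi-likelihood test of edgeR 4.0.16 in R 4.3.3, in the form of edgeR 3, in 1 fit of all 17 libraries with a group for each treatment and time. Calls used a Benjamini-Hochberg adjusted p under 0.1. CPM use the TMM scale, except the summed CPM of the members over time, which are shares of all counts in a library. The fit was tested on simulated data, with changes planted in genes of higher counts and the same spread for every gene. Genes near the floor, such as members on DMSO and at 2 h, were not covered by it. DESeq2 1.42.0 served as an alternative, with other scalings, filters, libraries, a batch term and a replicate block. The replicate number is the labels' batch at 2 and 10 h, where deviations of equal numbers correlated at 0.31 (DMSO and toyocamycin at 2 h) and 0.064 (toyocamycin at 2 and 10 h). Named genes are the 10 highest members, the earliest, members on tissue lists, in families of 3 or more members (up to 4 each) or within 100 kb of another, and the 3 genes on either side of the limit. The members and lists were chosen with earlier results of these data known.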

Additional observations from a re-analysis of the deposited data

How the results depend on the processing

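The direction of the members' change did not turn under any alternative run, but this was largely fixed in advance. The median member had 0 counts in both libraries of 2 h, so a fall from there could hardly be called. Of the members, 171 were higher at 10 h than at 2 h, and the count was 53 with only the libraries compared and 66 to 190 with 1 library of 2 or 10 h left out, of which 66 came without replicate 2 of 10 h and 108 without replicate 1 of 2 h. The 99 members higher at 24 h became 46 with only the libraries compared and 61 when scaled on the mitochondrially encoded genes, and the 201 at 48 h became 90 with only the libraries compared, a fit with fewer genes and libraries. The replicate block gave 153, 77 and 185 members at 10, 24 and 48 h and changed no count by over 1.5 times. At 72 h equal numbers correlated at -0.11, 0.043 and -0.088, so the numbers do not pair the libraries there. The 242 neighbours higher at 72 h became 154, with 105 lower, when scaled on the mitochondrially encoded genes, and the 48 genes upstream became 25. That scaling moved the median log2 change of all genes from 0.34 to -1.06 at 10 h and from 0.47 to -0.46 at 72 h. The cause was not tested. Shares of all genes called in the alternative fits are not given here, except above for the fit without replicate 2 of 10 h. Whether the counts moved more for members, their neighbours or the genes upstream than for other genes therefore cannot be read from them.

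Members on moved with the limit. With at least 4 counts, 7 were on at 2 h, 62 at 10 h and 119 after 24 h. Of the other silent genes 0.106%, 2.51% and 5.35% were on by that limit. At 10 h 23 members were on in replicate 1 alone, against 0.404% of the other silent genes. In replicate 2 alone 121 were on, against 41.3%. A rule of 0 counts on DMSO gave 67 members, at most 5 counts 362, at least 15 counts at 72 h 405, and at least 60 counts 87. Within 20 kb 56 of 210 members (26.7%) had an expressed gene upstream on the same strand, against 7.92% of the other silent genes. Within 100 kb 121 members (57.6%) had one, against 24.1%. With 20 CPM or more 58 of 210 (27.6%) had one within 50 kb, against 9.35%. The fits without replicate 2 of 10 h at the later times, the limits of the upstream gene, the single libraries of 10 h and all settings for the genes upstream were chosen after seeing the data. At 24 and 48 h, 1 library per group limits the precision.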
